A study of Macaca mulatta with 20 samples.

Results

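The late corpus luteum was set against the mid-late one, using 4 late and 4 mid-late arrays, 8 of the 20 arrays of the series. Arrays were taken by their titles, with no use of measured values. The late arrays hold corpora lutea taken 14 to 16 days after the surge of luteinizing hormone (LH), a time that the design text ties to functional regression, when progesterone secretion stops. The mid-late arrays hold corpora lutea of days 10 to 12, which still secrete much progesterone. The other 12 arrays are 4 each of the early (days 3 to 5), mid (days 7 to 8) and very-late (days 18 to 19) stages.

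All tissue came from female rhesus macaques with normal menstrual cycles, with no treatment or genetic change in any group. Each gland was removed at laparotomy and flash frozen, and total RNA was hybridised to an Affymetrix rhesus array, 1 array per gland. The design counts the 20 as biological replicates. Neither the exact day of each gland within its stage nor whether animals gave more than 1 gland is stated in the labels. A whole gland holds luteal cells, endothelium, stroma and immune cells in unknown shares, so in such RNA fewer cells of a type and less RNA per cell cannot be told apart.

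The corpus luteum forms from the ovulated follicle and makes progesterone. STAR brings cholesterol to the inner mitochondrial membrane, CYP11A1 cuts it to pregnenolone, and 3-beta-hydroxysteroid dehydrogenase (HSD3B2) turns that into progesterone. Primate luteal cells also make estrogen through CYP19A1, and secrete inhibin and relaxin. In a cycle without conception, secretion ends first, and the gland is later invaded by macrophages, broken down by proteases and lysosomal enzymes, and resorbed.

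The 8 arrays carried luteal RNA by the markers with a value, STAR, HSD3B2 and the mitochondrial electron carrier FDX1. Their mean was 11.08 to 11.94 log2 units in late arrays and 12.13 to 12.54 in mid-late arrays. CYP11A1, LHCGR and SCARB1 had no probe set with their symbol alone and are not analysed here. Late replicate 1 stood apart: it correlated with the other late arrays at r = 0.986 to 0.988 across probe sets, against 0.994 to 0.995 among the other 3. It lay at least 2-fold under all 3 for 85 genes and at least 2-fold over them for 39. For late replicates 2, 3 and 4 such genes numbered at most 2 under and 8 over. Mid-late replicate 1 had a mean of 8.12 over 6 mitochondrial probe sets, with the other 7 arrays at 11.96 to 12.45. Of 5 quality measures none passed an exact two-sided permutation test between the stages (lowest p = 0.143, and the smallest p that 70 permutations can give is 0.0286).

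Few transcripts passed the test between these stages. In limma's moderated test, fitted to all 20 arrays and adjusted by Benjamini-Hochberg over 52707 probe sets, 2 probe sets were higher and 4 lower in late than in mid-late corpora lutea at an adjusted p under 0.05. These 6 are 0.0114% of those tested, 0.00379% higher and 0.00759% lower. At an unadjusted p under 0.05 there were 3369, or 6.39%. The 4 late arrays lay wholly on one side of the 4 mid-late arrays for 5.67% of probe sets. Over 14132 genes, each read by its brightest probe set, the median difference was 0.0035 log2 units.

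DEFB122, a member of the beta-defensin family of small cationic peptides, had the largest fall. Its brightest probe set read 4.59, 7.25, 7.03 and 6.63 log2 units in the late arrays, against 9.86, 9.29, 8.96 and 9.77 in the mid-late arrays. All late values lay below all mid-late values, by well over 1 unit, and late replicate 1 was the lowest. DEFB122 fell by 3.10 ± 0.44 log2 units (SE, n = 4 arrays a stage), or 8.55-fold (adjusted p = 0.0307, limma). The other 2 probe sets of the gene did not follow: one averaged 7.39 in late and 7.77 in mid-late arrays (adjusted p = 0.417), and the other lay at background, at 3.15 and 3.23. In the order of the stages the mean of the brightest probe set was 10.66, 10.38, 9.47, 6.37 and 4.19. A second beta-defensin, DEFB119, had 3.79, 4.27, 4.73 and 4.02 units in late arrays, and 5.28, 5.82, 5.63 and 6.50 in mid-late arrays. Those groups did not overlap either, but the difference of -1.61 ± 0.32 did not pass (adjusted p = 0.105). Its late values are close to the signal of probe sets for viral genomes, whose 95th percentile was 4.30.

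NPR3, the clearance receptor that removes natriuretic peptides, was the other named gene to fall. The probe set that passed had 5.95, 6.62, 6.48 and 5.67 units in late arrays, against 7.73, 8.72, 8.02 and 8.34 in mid-late arrays. Its fall was 2.02 ± 0.29, or 4.06-fold (adjusted p = 0.0307, limma). The brighter probe set of NPR3 showed nearly the same difference, -2.02 ± 0.44, with a larger error (adjusted p = 0.143). There late arrays read 8.07, 7.88, 7.76 and 7.21, and mid-late arrays 9.38, 10.05, 9.57 and 9.98, again without overlap. NPPC, which encodes the C-type natriuretic peptide that NPR3 binds, averaged 4.4 units in late and 4.2 in mid-late arrays, near background.

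The remaining 4 probe sets carry no gene symbol in the platform's annotation. One of them rose by 1.95 ± 0.30 (adjusted p = 0.0469, limma), with late arrays at 4.86 to 6.33 and mid-late arrays at 3.27 to 4.68. MmugDNA.11459.1.S1_at rose by 0.52 ± 0.06 (adjusted p = 0.00920, limma), but at a level near background, with late arrays at 3.71 to 3.78 and mid-late arrays at 3.10 to 3.42. MmugDNA.43209.1.S1_at fell by 1.90 ± 0.30 and MmuSTS.2109.1.S1_at by 1.42 ± 0.22 (adjusted p = 0.0469 each, limma). At the very-late stage both that rose were lower again, with means of 3.12 and 3.17. Both that fell had very-late means of 5.17 and 5.82, below their late means of 5.35 and 7.17.

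The 6 calls rest on few arrays. Without late replicate 1 there were 83 (0.157%), 63 higher (0.12%) and 20 lower (0.0379%), without late replicate 2 there were 6, and without late replicates 3 and 4 there were 0 and 2. Leaving out mid-late replicates 1, 2, 3 and 4 gave 5, 0, 2 and 0. In the fits with 0 calls, limma gave 2879 to 2995 probe sets at an unadjusted p under 0.05. DEFB122 passed in 2 of these 8 fits (adjusted p = 0.00187 to 0.190), and the called NPR3 probe set in 3 (adjusted p = 0.0159 to 0.190). In the fit on the 8 arrays alone DEFB122 had an adjusted p of 0.0586, and the called NPR3 probe set 0.0324. With the replicate number as a block neither passed (adjusted p = 0.0518 and 0.0600).

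**Figure D1:**
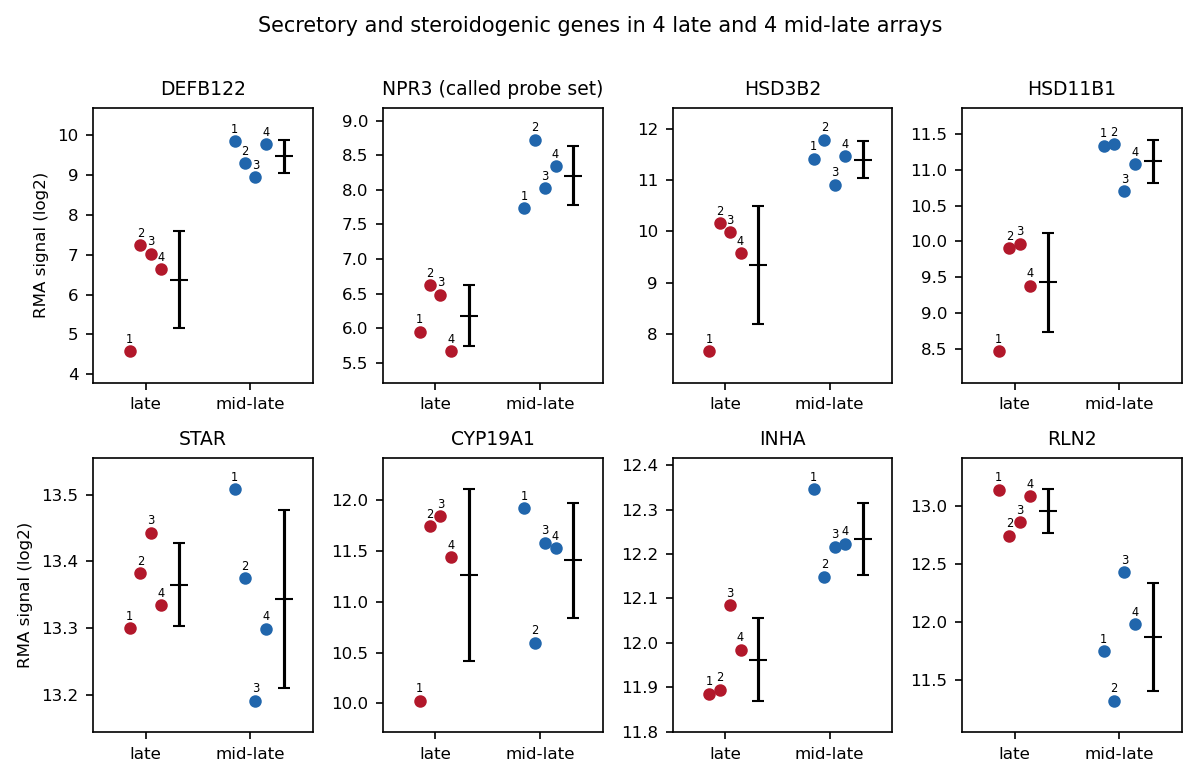
Deposited RMA signal (log2, vertical axis, a scale of its own in each panel) of 8 secretory and steroidogenic genes in the late (red) and mid-late (blue) arrays, with the replicate number above each point and the mean and SD (n = 4) to its right. DEFB122, NPR3, HSD3B2, HSD11B1 and INHA lie wholly lower in late arrays, RLN2 wholly higher, and STAR and CYP19A1 overlap; only DEFB122 and NPR3 passed the test over all probe sets.

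No gene of the progesterone synthesis list passed the test, and HSD3B2 and HSD11B1 had its lowest differences. The list also holds genes that are not enzymes of that synthesis, such as HSD11B1, which acts on cortisol, and NR5A2, a nuclear receptor. STAR was among the strongest signals and read 13.30, 13.38, 13.44 and 13.34 in late arrays, against 13.51, 13.38, 13.19 and 13.30 in mid-late arrays. The groups overlapped fully, and the difference was 0.02 with a 95% interval of -0.77 to 0.81 (adjusted p = 1.00, limma). That interval is wide because the fit shares its spread with the very-late arrays, where STAR ran from 8.05 to 10.55. HSD3B2, one enzymatic step on, read 7.67, 10.16, 9.98 and 9.57 in late arrays, against 11.42, 11.79, 10.91 and 11.47 in mid-late arrays. Every late array lay below every mid-late array, and late replicate 1 lay lowest by almost 2 units. The difference was -2.05 ± 0.37, or 4.15-fold lower, and did not pass (adjusted p = 0.0816). Without late replicate 1 it was -1.49 and passed (adjusted p = 0.00519). That was the only 1 of the 8 fits with 1 array left out in which HSD3B2 passed (adjusted p up to 0.298, limma).

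HSD11B1, which regenerates active cortisol, had the same form. Late arrays read 8.47, 9.90, 9.97 and 9.38, and mid-late arrays 11.34, 11.36, 10.71 and 11.08, without overlap. The difference of -1.69 ± 0.32 did not pass in all 20 arrays (adjusted p = 0.0816) or in the 8 alone (adjusted p = 0.0726, limma). It passed in the 16 arrays without the very-late stage (adjusted p = 0.0355), and in 0 of the 8 fits with 1 array left out. For its stages in order the mean was 11.70, 11.58, 11.12, 9.43 and 5.58, and for HSD3B2 it was 12.00, 11.92, 11.40, 9.35 and 6.05.

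Of 15 genes listed for progesterone synthesis 10 had a value, and 0 passed. At an unadjusted p under 0.05 over all genes, 4.66% were higher and 3.64% lower in late corpora lutea. The list's median difference was -0.11, against 0.0035 over all genes. Late arrays lay wholly below for 3 of the 10 (HSD3B2, HSD11B1 and NR5A2) and wholly above for 1, where the shares over all genes were 3.76% and 4.09%. NR5A2, a nuclear receptor that drives steroidogenic genes, averaged 9.04 ± 0.16 in late and 9.45 ± 0.14 in mid-late arrays (SD, n = 4). FDX1, which hands electrons to the side-chain cleavage enzyme, averaged 12.20 ± 0.08 and 12.36 ± 0.11. FDXR, its reductase, averaged 9.67 ± 0.27 and 10.00 ± 0.32. Among 15 measured genes of cholesterol synthesis none had groups apart, and their median difference was -0.03.

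No gene of androgen and estrogen synthesis passed. Of 6 measured genes 2 had late arrays wholly above (4.09% over all genes), and the median was -0.07, or 0.05 without late replicate 1. CYP19A1, the aromatase, read 10.03, 11.74, 11.85 and 11.44 in late arrays, against 11.92, 10.60, 11.58 and 11.53 in mid-late arrays. One late and one mid-late array were low, and the difference was -0.14 (95% interval -1.12 to 0.84). It was 0.27 without late replicate 1. CYP17A1, which makes the androgen that aromatase uses, averaged 8.02 ± 0.22 in late and 7.46 ± 0.32 in mid-late arrays with no overlap (adjusted p = 0.989). The other gene wholly above, HSD17B2, which inactivates estradiol, was at background (3.35 and 3.24).

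Secreted hormones and related proteins had differences in both directions, and those given next did not pass. RLN2, the relaxin hormone, read 13.14, 12.75, 12.86 and 13.08 in late arrays, against 11.75, 11.32, 12.43 and 11.98 in mid-late arrays. All late arrays were above all mid-late ones, with a difference of 1.08 ± 1.20 (adjusted p = 0.987). Its SE is set by the early and very-late arrays, which ran from 4.94 to 9.44 and from 4.75 to 12.55. In the fit on the 8 arrays alone the adjusted p was 0.0846. SERPINA4, the protease inhibitor kallistatin, read 10.50, 11.31, 11.12 and 10.85 against 8.95, 10.08, 10.20 and 9.95, also wholly higher in late arrays and not past the test (1.15 ± 0.91, adjusted p = 0.956). For both genes the late mean was the highest of the 5 stages, 12.96 for RLN2 and 10.95 for SERPINA4.

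INHA, the alpha subunit of inhibin, averaged 11.96 ± 0.09 in late and 12.23 ± 0.08 in mid-late arrays, with no overlap but a difference of -0.27 only. INHBA, an activin and inhibin beta subunit, averaged 8.58 ± 0.75 and 9.26 ± 0.86, with overlap. FSTL3, which binds activin, read 6.65, 7.45, 7.38 and 7.08 in late arrays, against 7.78, 8.48, 7.56 and 7.81 in mid-late arrays, a difference of -0.77 ± 0.21 (adjusted p = 0.296). Of 12 inhibin and activin genes 0 passed, and their median was -0.12 (-0.20 to -0.05 with 1 array left out). PRLR, the prolactin receptor, averaged 6.68 ± 0.08 in late and 7.16 ± 0.18 in mid-late arrays, wholly lower, and 4 of its 5 probe sets were wholly lower. The difference was -0.48 ± 0.33 (adjusted p = 0.926), and 0.0882 was the adjusted p in the 8 arrays alone. PGR, the progesterone receptor, averaged 3.30 and 3.56, both within background. HPGD, which inactivates prostaglandins, averaged 9.09 ± 1.22 and 9.42 ± 0.95, a difference of -0.33 that was 0.28 without late replicate 1. RGS2, a brake on G-protein signals, averaged 9.12 ± 0.80 and 9.92 ± 0.87.

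**Figure D2:**
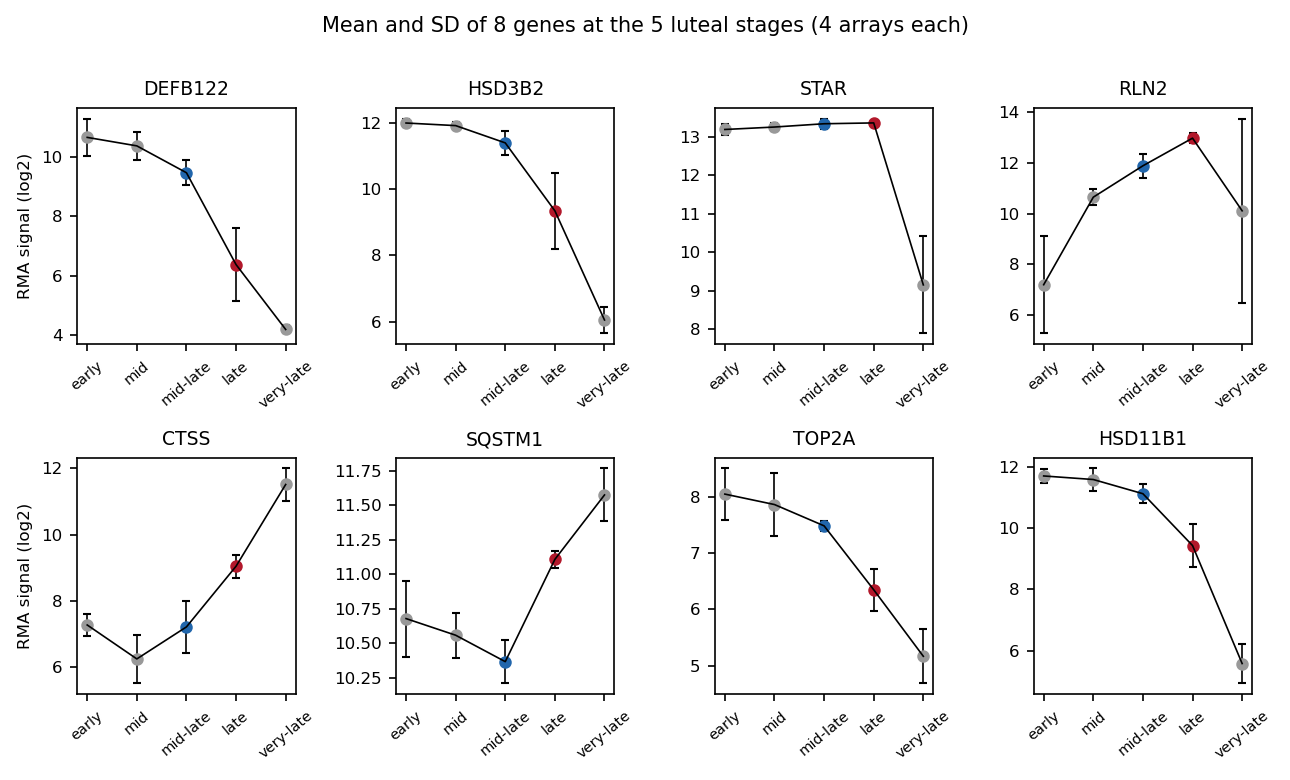
Mean and SD (n = 4 arrays a stage) of the deposited RMA signal (log2, vertical axis, a scale of its own in each panel) of 8 genes at the 5 luteal stages in order of time, mid-late in blue and late in red. DEFB122, HSD3B2 and HSD11B1 have lower means in late than in mid-late arrays, while STAR differs by 0.02 there and is low in the very-late arrays only; RLN2 has its highest mean, 12.96, at the late stage.

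Several other genes had lower values in late arrays without a call, of which AREG, NANOS1, ELOVL6, ADIRF and HIPK2 were chosen after their values were seen. AREG, an epidermal growth factor receptor ligand that LH induces in follicles, read 7.97, 11.20, 10.66 and 10.09 in late arrays, against 11.62, 11.80, 11.34 and 11.97 in mid-late arrays. The groups did not overlap, and the difference was -1.70 ± 0.46 (adjusted p = 0.310), or -1.03 without late replicate 1. NANOS1, an RNA-binding translational repressor, averaged 6.97 ± 0.14 in late and 8.97 ± 0.40 in mid-late arrays. ELOVL6, which lengthens fatty acids, averaged 7.93 ± 0.25 and 9.24 ± 0.23, and all 4 of its probe sets were wholly lower in late arrays. ADIRF, an adipogenesis regulatory factor, averaged 8.89 ± 0.29 and 10.27 ± 0.35, and HIPK2, a nuclear kinase, 8.42 ± 0.17 and 9.15 ± 0.11. Of the 7 probe sets of HIPK2 3 were wholly lower in late arrays. Its brightest probe set averaged 10.18 in mid arrays, so it was already lower at mid-late, by -1.04 (adjusted p = 0.0460, limma). The 9 measured epithelial genes had a median difference of only -0.09, 2 had a higher mean in late arrays and 0 passed. Among the 9, 4 lay within background. Late arrays lay wholly below for 1 (11.1%, against 3.76% of all genes) and wholly above for 0. That gene, the tight-junction protein CLDN3, averaged 7.71 ± 0.15 in late and 8.82 ± 0.25 in mid-late arrays, and both its probe sets had groups apart. KRT8, a keratin, averaged 4.76 ± 0.63 and 6.51 ± 0.86, with late replicate 1 inside the mid-late range.

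For 5 of these 7 genes the call depended on which arrays set the spread. The adjusted p of the 7 was 0.167 (HIPK2) to 0.561 (ELOVL6) in all 20 arrays. On the 8 arrays alone NANOS1, ELOVL6 and CLDN3 had an adjusted p of 0.0307, HIPK2 0.0361 and ADIRF 0.0390, while AREG (0.311) and KRT8 (0.157) passed in neither. Over all probe sets, 8 arrays alone gave 89 calls, 30 higher (0.0569%) and 59 lower (0.112%) in late arrays, 0.169% together. The 16 arrays without the very-late stage gave 36, 21 higher (0.0398%) and 15 lower (0.0285%), 0.0683% together. All 6 calls of the 20-array fit were among these 36, and 4 were among the 89. Both smaller fits shared 18 calls. With the adjustment over 1 probe set per gene, 16 genes passed, 8 higher and 8 lower. Among them were MMP9, PLA2G2D, PRAM1 and SQSTM1, higher in late arrays (adjusted p = 0.0397 each), and HSD3B2 and HSD11B1, lower (adjusted p = 0.0497 each).

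Genes of cell division mostly had lower means. Of 24 listed genes 16 had a value, 14 had a lower mean in late arrays, 0 passed, and the median difference was -0.33. Late arrays lay wholly below mid-late arrays for 7 of the 16 (3.76% over all genes) and wholly above for 0. TOP2A, the topoisomerase that untangles replicated DNA, read 6.24, 6.51, 6.76 and 5.89 in late arrays, against 7.42, 7.58, 7.41 and 7.54 in mid-late arrays. The mid-late values lay within 0.2 units of each other, and the difference was -1.14 ± 0.28 (adjusted p = 0.237 in 20 arrays and 0.0438 in the 8 alone). CCNB1, the cyclin of entry into mitosis, read 4.45, 4.83, 5.13 and 5.00 against 5.82, 6.19, 5.55 and 5.89, a difference of -1.01 ± 0.23 (adjusted p = 0.167).

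Other mitotic genes ran the same way at low signal. CCNB2, a second B-type cyclin, averaged 4.93 ± 0.22 in late and 5.60 ± 0.17 in mid-late arrays. MKI67, the marker of cycling cells, averaged 4.93 ± 0.11 and 5.41 ± 0.21, and CENPF, a kinetochore protein, 5.36 ± 0.27 and 5.98 ± 0.13. AURKB, a mitotic kinase, averaged 6.42 ± 0.12 and 6.70 ± 0.09. CDK1, the partner of the B cyclins, averaged 5.14 ± 0.63 and 5.84 ± 0.18, and its groups overlapped. None of these 5 passed (adjusted p = 0.556 to 0.846). Leaving out any 1 of the 8 arrays kept the list's median between -0.36 and -0.28.

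Markers of monocytes and macrophages had the highest median difference among the 36 lists. Of 21 members 16 had a value and 0 passed. All 16 had a higher mean in late arrays, and the median difference was 1.08 log2 units. Late arrays lay wholly above mid-late arrays for 3 of the 16, where 4.09% of all genes did. Mid-late replicate 3 was at or above the lowest late array for 12 of the 16 members, while mid-late replicates 1, 2 and 4 were so for 2, 2 and 3. Without mid-late replicate 3 the late arrays lay wholly above for 12 of the 16, and without late replicate 1 for 9, with 5.93% and 8.36% of all genes so. The median was 0.76 without mid-late replicate 1, which had the lowest level of these genes, and 1.38 without mid-late replicate 3.

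CD68, a lysosomal protein of macrophages, read 7.81, 8.20, 8.24 and 8.55 in late arrays, against 6.24, 7.11, 7.66 and 7.53 in mid-late arrays, without overlap (1.06 ± 0.27, adjusted p = 0.253). CSF1R, the receptor for macrophage colony-stimulating factor, read 7.20, 7.87, 7.75 and 8.23 against 5.95, 5.94, 7.41 and 6.87, with late replicate 1 under mid-late replicate 3. TYROBP, a signalling adaptor of myeloid cells, read 9.03, 9.11, 9.07 and 9.53 against 7.17, 7.74, 9.19 and 8.46. In all these genes the mid-late arrays spread over more than 1 unit, and more widely than the late arrays. CD14, a receptor for bacterial lipopolysaccharide, averaged 8.67 ± 0.55 in late and 7.65 ± 0.88 in mid-late arrays, and AIF1, an actin-binding protein of macrophages, 6.43 ± 0.50 and 5.22 ± 0.97. LYZ, lysozyme, averaged 10.37 ± 0.84 and 8.18 ± 1.21, a difference of 2.19 ± 0.46 (adjusted p = 0.123). CYBB, a subunit of the phagocyte oxidase, averaged 7.05 ± 0.41 and 5.59 ± 0.74 (adjusted p = 0.167).

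Short marker sets of lymphocytes and neutrophils were near background, but the longer lymphocyte list was not. In the short set of 5 lymphocyte markers 2 had a value, CD79A and NKG7. Their mean was 3.96 to 4.28 in late arrays and 3.94 to 4.28 in mid-late arrays. The lymphocyte list had 11 measured genes, of which 3 lay within background. Its mean level was 5.83 to 5.87 in late and 5.68 to 5.96 in mid-late arrays, with overlap. Late arrays lay wholly above for 2 of the 11 (18.2%, against 4.09% of all genes) and wholly below for 0, and the median difference was 0.06. The neutrophil genes S100A8, S100A9 and CSF3R had a mean of 3.89 to 4.33 and 3.60 to 3.88. The erythrocyte genes HBB and ALAS2 lay above background, with a mean of 5.83 to 6.04 in late and 5.93 to 6.47 in mid-late arrays. Mean levels of 4 endothelial markers lay at 9.38 to 9.68 in late and 9.34 to 9.62 in mid-late arrays, and of 5 macrophage markers at 7.52 to 8.40 and 6.05 to 7.88. The part of a change in cell makeup in the other differences was not tested.

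**Figure D3:**
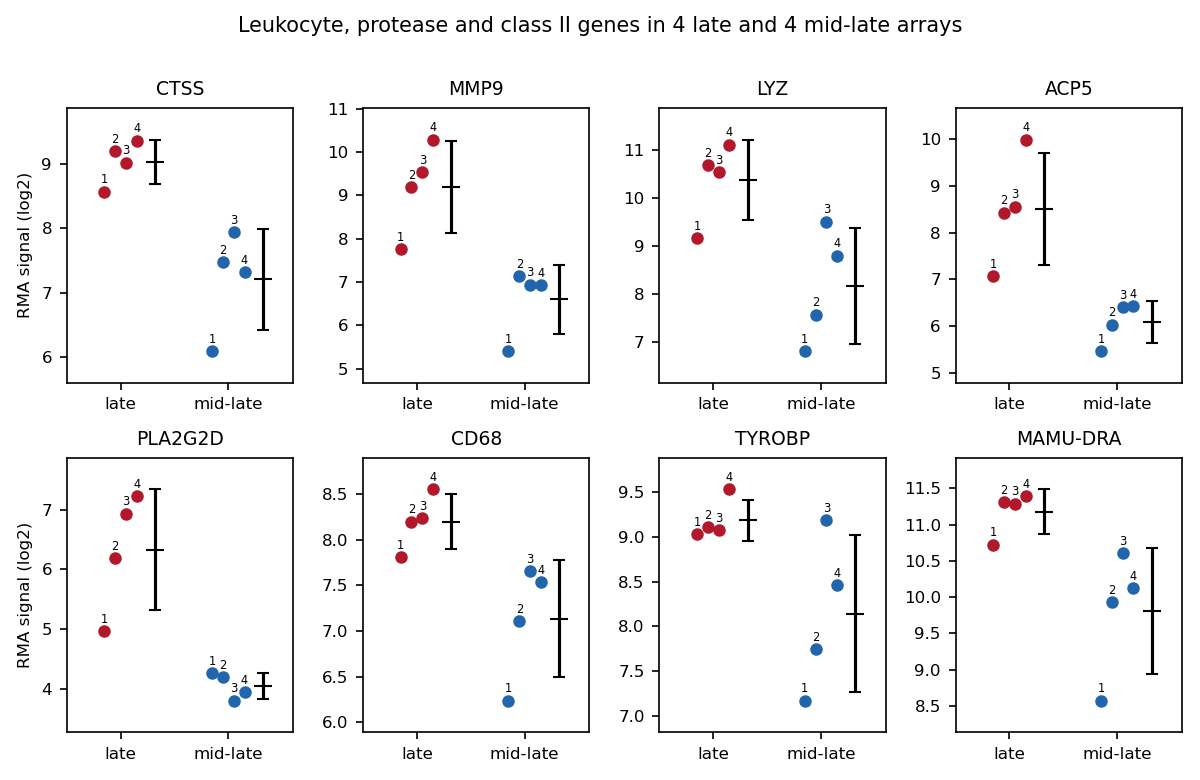
Deposited RMA signal (log2, vertical axis, a scale of its own in each panel) of 8 leukocyte, protease and class II genes in the late (red) and mid-late (blue) arrays, with the replicate number above each point and the mean and SD (n = 4) to its right. Mid-late replicate 1 is the lowest array for 7 of the genes, PLA2G2D being the other, and mid-late replicate 3 reaches the late range for TYROBP and LYZ; none of the 8 passed the test over all probe sets.

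Of 17 matrix proteases and inhibitors 0 passed, 10 had a higher and 7 a lower mean in late arrays, and the median was 0.04. Late arrays lay wholly above for 1 and wholly below for 1, or 5.88% each, near the 4.09% and 3.76% over all genes. The one wholly above was MMP9, and lysosomal cathepsins of another list are given beside it. MMP9, the gelatinase that digests type IV collagen, read 7.75, 9.20, 9.54 and 10.29 in late arrays, against 5.41, 7.13, 6.94 and 6.93 in mid-late arrays. The difference was 2.59 ± 0.43, or 6.04-fold, and did not pass (adjusted p = 0.0693, and 0.00153 without late replicate 1). MMP9 passed in only that 1 of the 8 fits with 1 array left out (adjusted p up to 0.298, limma). CTSS, the lysosomal protease cathepsin S, read 8.57, 9.20, 9.03 and 9.37 against 6.09, 7.47, 7.94 and 7.32, and all 4 of its probe sets had late arrays wholly above (1.84 ± 0.37, adjusted p = 0.105). CTSK, the collagen-cutting cathepsin K, read 9.09, 9.29, 9.48 and 10.94 against 7.34, 7.77, 8.29 and 8.46 (1.73 ± 0.40, adjusted p = 0.191). For each of these the late arrays stood clear of the mid-late arrays. CTSZ, another cathepsin, averaged 8.07 ± 0.52 in late and 7.14 ± 0.29 in mid-late arrays, with late replicate 1 inside the mid-late range.

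SQSTM1, the autophagy receptor p62, had narrow groups that lay apart. It read 11.04, 11.09, 11.12 and 11.19 in late arrays, against 10.59, 10.27, 10.36 and 10.25 in mid-late arrays. The difference was small, 0.74 ± 0.12, with an adjusted p of 0.0693 in 20 arrays, 0.0349 in 16 and 0.0307 in the 8 alone. MAN2B1, a lysosomal mannosidase chosen after its values were seen, averaged 6.95 ± 0.15 and 6.20 ± 0.19, with an adjusted p of 0.0816, 0.0343 and 0.0449 in the same fits. In the 8 fits with 1 array left out SQSTM1 passed in 1 (adjusted p up to 0.298, limma) and MAN2B1 in 0 (adjusted p = 0.0541 to 0.345). Of 16 measured lysosome and autophagy genes 0 passed, 5 had late arrays wholly above (4.09% over all genes) and 0 wholly below, and the median was 0.22. Without late replicate 1 the count was 9 (8.36% over all genes) and the median 0.36. NPC2, which carries cholesterol out of lysosomes, averaged 11.37 ± 0.24 in late and 10.96 ± 0.07 in mid-late arrays.

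The mean level of the lysosome list was 8.36 to 8.87 in the late arrays, against 7.99 to 8.26 in the mid-late arrays, with no overlap. That of the macrophage list was 7.54 to 7.98 and 6.10 to 7.52, and that of the proliferation list 5.52 to 5.87 and 6.04 to 6.21. The progesterone list was at 9.25 to 9.75 in late and 9.83 to 10.16 in mid-late arrays. HSD3B2 (-2.05) and HSD11B1 (-1.69) had the largest falls in it, and HSD11B1 is not an enzyme of progesterone synthesis. The mean of the list without HSD11B1 was not computed. Its median difference was only -0.11, and 4 of its 10 members had a higher mean in late arrays. These list means were not tested. For endothelial markers the ranges, 7.85 to 8.06 and 7.82 to 7.98, overlapped.

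**Figure D4:**
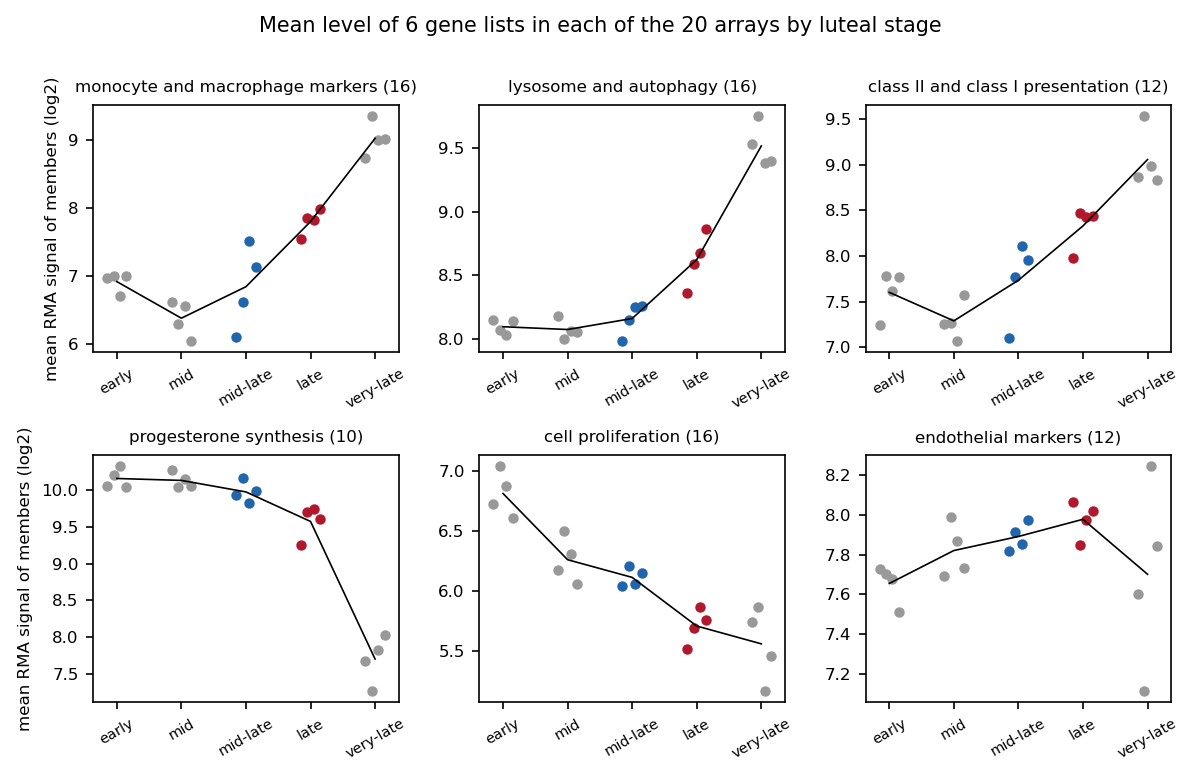
Mean RMA signal (log2, vertical axis) of the measured members of 6 gene lists, with their number in brackets, in each of the 20 arrays (points) at the 5 luteal stages in order of time, with the stage means joined by a line; mid-late is blue and late is red. The late and mid-late points of the macrophage, lysosome, progesterone and proliferation lists do not overlap. Those of the endothelial and class II lists overlap, and for class II late replicate 1 (7.98) lies under 1 mid-late array (8.11). The list means were not tested.

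Further genes with large differences were chosen after their values were seen. ACP5, the tartrate-resistant acid phosphatase of osteoclasts and macrophages, read 7.07, 8.43, 8.55 and 9.98 in late arrays, against 5.48, 6.04, 6.40 and 6.43 in mid-late arrays (2.42 ± 0.49, adjusted p = 0.105). PLA2G2D, a secreted phospholipase, read 4.96, 6.19, 6.93 and 7.23 against 4.25, 4.19, 3.80 and 3.94, so its mid-late arrays were at background (2.29 ± 0.39, adjusted p = 0.0693). ADAMDEC1, a metalloprotease of macrophages and dendritic cells, was likewise at 3.72 to 6.69 in late arrays and at 3.17 to 3.49 in mid-late arrays. All 3 had late replicate 1 as their lowest late array, and without it their adjusted p was 0.0113, 0.00123 and 0.0071. That was the only 1 of the 8 fits with 1 array left out in which each passed (adjusted p up to 0.396, 0.298 and 0.470, limma).

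LCP1, an actin bundler of leukocytes, averaged 8.56 ± 0.49 in late and 6.89 ± 0.84 in mid-late arrays. PRAM1, an adaptor of myeloid cells, averaged 8.68 ± 0.32 and 7.22 ± 0.56 (adjusted p = 0.0693). IFI30, a thiol reductase of lysosomes, averaged 9.81 ± 0.31 and 8.50 ± 0.55, and LGALS3, a galactose-binding lectin, 10.60 ± 0.37 and 9.52 ± 0.64. ADA2, a secreted adenosine deaminase, averaged 5.71 ± 0.34 and 4.78 ± 0.18, with an adjusted p of 0.141 in 20 arrays, 0.0349 in 16 and 0.0636 in the 8 alone (limma). KALRN, a signalling protein known from neurons, averaged 7.93 ± 0.83 in late and 6.12 ± 0.18 in mid-late arrays (adjusted p = 0.0816), with its highest stage mean in the late arrays and a very-late mean of 4.69. The largest difference of any gene named here was that of MBLAC2, a metallo-beta-lactamase domain protein, at 4.93 ± 1.40 (adjusted p = 0.353). Its brightest probe set read 5.83, 10.02, 9.89 and 10.28 in late arrays, against 3.73, 5.40, 3.43 and 3.73 in mid-late arrays. The groups were apart by little, since late replicate 1 and mid-late replicate 2 lay close, and its other 4 probe sets differed by -0.17 to 0.72.

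Genes of antigen presentation and interferon response had higher means, without a call. MAMU-DRA, the alpha chain of a class II molecule, read 10.72, 11.31, 11.29 and 11.39 in late arrays, against 8.57, 9.93, 10.61 and 10.13 in mid-late arrays (1.37 ± 0.37, adjusted p = 0.311). MAMU-DMA, which helps load class II molecules, read 7.83, 8.62, 8.70 and 8.97 against 5.86, 7.02, 7.72 and 7.27 (1.57 ± 0.33, adjusted p = 0.122). CD74, the invariant chain, averaged 10.48 ± 0.22 and 9.39 ± 0.55. These 3 had late arrays wholly above, alone among the 12 measured genes of the presentation list, whose median was 0.42 (4.09% of all genes lay wholly above). Without late replicate 1 the count was 6, with 8.36% of all genes so, and without mid-late replicate 1 the median was 0.28. B2M, the light chain of class I, which nearly every cell makes, averaged 13.25 ± 0.07 and 13.18 ± 0.06.

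Of 16 interferon response genes 1 had late arrays wholly above, a share of 6.25% against 4.09% of all genes, and the median was 0.41. Without late replicate 1 the count was 6 (8.36% of all genes), and without mid-late replicate 1 the median was 0.20. That gene, the transcription factor IRF1, averaged 6.94 ± 0.36 in late and 5.77 ± 0.33 in mid-late arrays (1.17 ± 0.35, adjusted p = 0.416). GBP1, an interferon-induced GTPase, read 6.16, 9.03, 8.88 and 8.74 in late arrays, against 5.03, 5.94, 7.33 and 6.87 in mid-late arrays, with late replicate 1 inside the mid-late range. UBD, a ubiquitin-like protein that interferon gamma induces, chosen after its values were seen, was at 3.61, 4.62, 5.25 and 5.80 against 3.46 to 3.53.

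**Figure D5:**
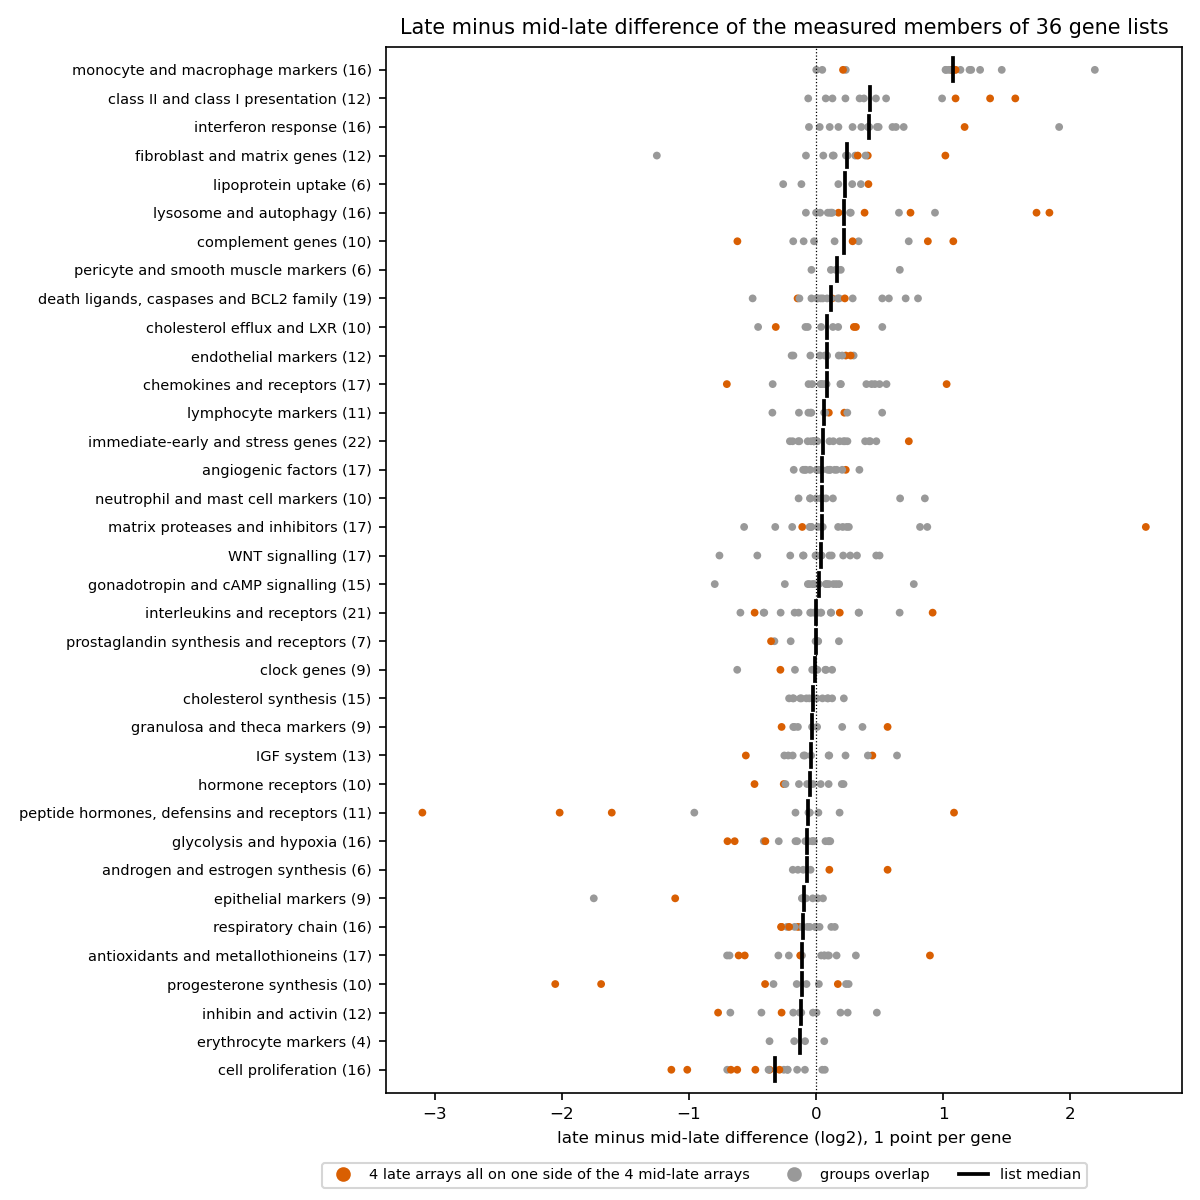
Late minus mid-late difference (log2, horizontal axis) of each measured member of 36 gene lists, 1 point per gene, ordered by list median (black bar), with the number of measured members in brackets; orange points are genes whose 4 late arrays lie all on one side of the 4 mid-late arrays. The macrophage list has the highest median (1.08) and the proliferation list the lowest (-0.33), and the lowest single value is DEFB122 (-3.10).

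No gene of the vessel and matrix lists passed. Of 12 endothelial markers 2 had late arrays wholly above (4.09% over all genes), with a median of 0.09 that ran from 0.05 to 0.17 with 1 array left out. VWF, the clotting factor of endothelium, averaged 9.88 ± 0.14 in late and 9.59 ± 0.20 in mid-late arrays, and KDR, through which that tissue senses VEGF, 5.24 ± 0.28 and 5.41 ± 0.31. Of 17 angiogenic genes the median was 0.05. VEGFA itself is not analysed here. Of 12 fibroblast and matrix genes 3 had late arrays wholly above (4.09% over all genes) and 0 wholly below, with a median of 0.24. Among them DCN, a proteoglycan that binds collagen, read 12.53, 12.29, 12.43 and 12.62 in late arrays, against 11.19, 10.72, 12.16 and 11.73 in mid-late arrays (1.02 ± 0.45, adjusted p = 0.742). The groups did not overlap for 4 of its 5 probe sets. COL1A1, a chain of type I collagen, averaged 11.30 ± 0.21 and 10.99 ± 0.14, with overlap. The lowest difference of the list was that of LUM, another collagen-binding proteoglycan, which averaged 3.62 ± 0.23 in late and 4.87 ± 1.72 in mid-late arrays (adjusted p = 0.872). TIMP1, the inhibitor of MMP9 and other metalloproteases, was at 13.84 ± 0.08 and 13.89 ± 0.11, a difference of -0.04 with a 95% interval of -0.19 to 0.11.

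Of 10 complement genes 0 passed, 3 had late arrays wholly above and 1 wholly below (4.09% and 3.76% over all genes), and the median was 0.22. Those above were C1S, CFB and SERPING1, and the one below was CD55, which shields cells from complement. Among signals and stress genes with groups apart, CXCL12, a chemokine, averaged 6.66 ± 0.32 in late and 5.64 ± 0.61 in mid-late arrays, C1S, a complement protease, 10.15 ± 0.35 and 9.07 ± 0.56, and IL10RA, a chain of the interleukin-10 receptor, 5.36 ± 0.11 and 4.45 ± 0.43. SOD2, the mitochondrial superoxide dismutase, averaged 8.53 ± 0.45 and 7.63 ± 0.21. The dimmer probe set of SOD2 ran the other way, at 5.79 in late and 6.14 in mid-late arrays (difference -0.35, groups overlapping). For CXCL12 a dimmer probe set averaged 5.12 in late and 5.28 in mid-late arrays, and another 4.40 and 4.28. ATF3, a stress-induced transcription factor, ran from 5.55 to 6.49 in late and from 5.12 to 5.53 in mid-late arrays. APOE, which carries cholesterol, read 12.66 to 12.71 in late arrays and 12.16 to 12.58 in mid-late arrays. None of these 6 passed (adjusted p = 0.253 to 0.699). Of 19 death ligand, caspase and BCL2 family genes 0 passed and the median was 0.12.

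Most energy genes had a lower mean in late arrays, by small median differences, and none passed. Of 16 respiratory chain genes 13 had a lower mean. Late arrays lay wholly below for 4 of them (25%, against 3.76% of all genes) and wholly above for 0. The median was -0.11, or -0.025 without late replicate 1. NDUFS1, a subunit of complex I, averaged 9.69 ± 0.12 in late and 9.96 ± 0.07 in mid-late arrays, and UQCRFS1, the Rieske protein of complex III, 9.68 ± 0.14 and 9.96 ± 0.06. Among 16 glycolysis and hypoxia genes 12 had a lower mean. Late arrays lay wholly below for 3 (18.8%, against 3.76% of all genes) and wholly above for 0. The median was -0.07 (-0.12 to -0.04 with 1 array left out). HK2, the hexokinase that starts glycolysis, read 7.38, 7.48, 7.34 and 7.26 in late arrays, against 7.99, 7.92, 7.89 and 8.22 in mid-late arrays, with an adjusted p of 0.608 in 20 arrays and 0.0370 in the 8 alone. PFKFB3, which speeds glycolysis, averaged 3.82 ± 0.23 and 4.51 ± 0.17, near background.

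The late step, late minus mid-late, was then set against an earlier step of the same gland, mid minus early, which shares no array with it. The difference between the steps passed for 70 probe sets, which carry 49 gene symbols besides unnamed ones, 34 with the late step higher (0.0645%) and 36 with it lower (0.0683%), 0.133% together. In 69 of the 70 the late and the mid step had opposite signs. A test of the difference between the steps favours such probe sets, and their share over all probe sets was not counted. LCP1 had a late step of 1.66 and a mid step of -1.72, a difference of 3.38 ± 0.48 (adjusted p = 0.0148, limma). LYZ differed by 3.84 ± 0.65 (adjusted p = 0.0313), MMP9 by 3.63 ± 0.61 (adjusted p = 0.0305) and CTSS by 2.86 ± 0.53 (adjusted p = 0.0354), each with a mid step of -1.64 to -1.03. TYROBP, IFI30, LGALS3 and IL10RA also had a higher late step (adjusted p = 0.0354 each).

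In the other direction, PFKFB3 had a late step of -0.70 and a mid step of 1.02 (adjusted p = 0.0148), and the called NPR3 probe set a late step of -2.02 and a mid step of 0.20 (adjusted p = 0.0354). DEFB122 and HSD3B2 did not pass this test (adjusted p = 0.0823 and 0.152). All 4 mid arrays (7.67 to 8.93), early replicate 4 (7.02) and mid-late replicate 1 (8.12) were low in mitochondrial signal, with the other early, mid-late and late arrays at 11.75 to 12.45. With a term for that split 3 probe sets passed in place of 70. Leaving out 1 of the 16 arrays gave 0 to 177 calls, with 0 without late replicate 4 (4225 at an unadjusted p under 0.05, limma) and 1 without mid replicate 3.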

How the data were processed

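Total RNA of whole corpora lutea was labelled with biotin from 2 µg by 1 cycle of amplification, per the labels' protocols. RMA was the method named in the submitters' processing notes. The authors deposited 1 summarised signal for each probe set and array, and that these are log2 values was read from their range (2.48 to 14.28). The RMA version, chip definition and filters are not given in the sources used here.

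The table has 52865 probe sets, and 158 that serve as array controls were dropped. Symbols came from the platform annotation, updated by gene identifier: 24956 probe sets had 1 symbol, 361 several and 27390 none. Where several probe sets share a symbol, the brightest on average stands for the gene. In R 4.3.3, limma 3.58.1 fitted 5 stage means to all arrays with no covariate (15 residual degrees of freedom), tested two-sided, with Benjamini-Hochberg adjustment over 52707 probe sets and no filter. The procedure was tested on simulated data, with independent noise of equal spread in all arrays for each probe set. That setting holds no array that stands apart and no stage of wider spread, so it does not cover those cases. The number of arrays limits the precision. Each p-value of the 20-array fit sets a difference against the spread between arrays of a stage, pooled over the 5 stages. Of these arrays 12 are not among the 8 compared.

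Members, 36 gene lists and the rules were chosen with earlier results of these data known. Of 647 list entries, 462 had a value. Named genes could be those past the test with the largest differences, members of each list past the test and up to 2 others with its largest differences, and 34 fixed genes, of which 28 had a value and 1 passed. Only some are named. Further list members and markers are given as examples, and genes of no list are marked as chosen after their values were seen. Alternatives covered dim probe sets, scaling, prior, array weights, a replicate block, fewer arrays, 1 probe set per gene, the mean of probe sets and a 2-fold minimum. Added after seeing the data were a mitochondrial term, leaving out early and mid arrays, and list values without single arrays.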

Additional observations from a re-analysis of the deposited data

Results flagged for a closer look

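Single arrays far from the other 3 of their stage were looked for by Dixon's criterion in 166 groups of 4 values, of which chance marks about 1 in 20. It marked 17, and 9 of them were late replicate 1. That array read 7.26 for HPGD with the other late arrays at 9.64 to 9.77, 6.44 for CYBB (others 7.19 to 7.34), 7.86 for CD14 (8.85 to 9.05) and 9.63 for C1S (10.29 to 10.36). It read 10.72 for MAMU-DRA (11.29 to 11.39), 10.15 for CD74 (10.57 to 10.62), 6.16 for GBP1 (8.74 to 9.03) and 5.83 for MBLAC2 (9.89 to 10.28). KRT8 was the one gene of these 9 in which it was high, at 5.69 (4.38 to 4.53).

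Late replicate 4 was high for TYROBP, at 9.53 (9.03 to 9.11), and low in mean mitochondrial signal, at 11.96 (12.14 to 12.17). Mid-late replicate 1 was low for MMP9 at 5.41 (6.93 to 7.13), for CLDN3 at 8.44 (8.90 to 8.97), for PRAM1 at 6.38 (7.45 to 7.58) and for MAN2B1 at 5.91 (6.29 to 6.32). Its mean mitochondrial signal was 8.12, with the other mid-late arrays at 12.26 to 12.45. Mid-late replicate 2 was high for MBLAC2, at 5.40 (3.43 to 3.73).

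The late and the mid step differed, by the test of the difference itself, for 70 probe sets.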

How the results depend on the processing

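Of 1438 values recomputed for 80 named genes, 1352 kept their direction and their side of the threshold, 68 came to pass it, 8 (all DEFB122) no longer passed it and 10, in 4 genes, changed sign. NPR3 enters there by its brighter probe set, and its called probe set failed in 5 of the 8 fits with 1 array left out and with the replicate block. The sign changes were in genes with small differences, and the cause was not tested. STAR was -0.0044 without late replicate 3, -0.029 without mid-late replicate 3 and -0.064 with the mitochondrial term. CYP19A1 was 0.054 with array weights, 0.27 without late replicate 1 and 0.03 without mid-late replicate 1. HPGD was 0.28 without late replicate 1. TIMP1 was 0.013 with cyclic loess, 0.009 without mid-late replicate 1 and 0.12 as the mean of its probe sets. With single arrays left out, STAR ranged over -0.029 to 0.076, CYP19A1 over -0.41 to 0.27, HPGD over -0.79 to 0.28 and TIMP1 over -0.075 to 0.009.

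The count of 6 called probe sets was 13 without dim probe sets, 11 with cyclic loess, 11 with a trended and robust prior, 185 with array weights, 89 in the 8 arrays, 36 in the 16 arrays and 16 with 1 probe set per gene. It was 0 to 83 when 1 array was left out, 83 without late replicate 1, 2 without late replicate 4 or mid-late replicate 3, and 0 without late replicate 3 or mid-late replicate 2 or 4, where limma gave 2995, 2879 and 2943 at an unadjusted p under 0.05.

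The step count of 70 was 174 without dim probe sets, 362 in the 16 arrays, 3 with the mitochondrial term (added after seeing the data) and 0 to 177 when 1 array was left out. Late replicates 1 to 4 gave 177, 12, 19 and 0 when left out, mid-late replicates 1, 2 and 4 gave 17, 29 and 14, mid replicates 1, 3 and 4 gave 161, 1 and 22, and early replicates 1, 2 and 3 gave 14, 107 and 31. With the replicate block the counts were 3 (3 higher and 0 lower) in place of 6, with DEFB122 at 0.0518 and NPR3 at 0.0600 (limma, adjusted), and 18 in place of 70. Late and mid-late arrays share only replicate numbers: their deviations correlated at 0.17, -0.083, 0.063 and 0.24, and 2 of 4 late and 2 of 4 mid-late arrays correlated best with their own number. With 4 arrays a stage, and signals under about 4.30 within background, small differences of dim genes could not be measured.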
